A study of Mus musculus with 4 samples.

Results

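Dentate granule neurons are the excitatory neurons of the dentate gyrus. They receive the main cortical input to the hippocampus and send mossy fibres to hilar mossy cells and to CA3. Their identity is held by the transcription factor Prox1. They are also known as a hippocampal site of *Il1r1*, the receptor that pairs with the accessory protein Il1rap to bind IL-1 and signal through Myd88, the Irak kinases and NF-kB.

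Granule nuclei were chosen by their counts in single-nuclei RNA-seq of mouse hippocampus. A nucleus entered if it had at most 20% mitochondrial UMIs (unique transcripts), at least 500 UMIs, at least 1 *Syt1* UMI (a synaptic vesicle gene of neurons), at most 1 UMI of *Gad1* and *Gad2* together (enzymes that make GABA) and none of *Igfbpl1*. It also needed at least 3 UMIs of *Prox1*, *Glis3*, *Dsp*, *Stra6*, *C1ql2* and *Trpc6* summed, at least 8 of them per 10000 UMIs, and more of them than of the CA genes *Fibcd1*, *Gm2115*, *Mndal*, *Col11a1* and *Nectin3* summed. The rule took 6575 of the 48821 nuclei that passed the first pair of filters, or 13.5%. These counts chose the nuclei, so the 6 markers and the level of other genes in granule nuclei against other neurons are given below as a description, with no test.

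The 8 groups were 1 pool each of nuclei from 3 male mice, taken after repeated social defeat (RSD) or from undisturbed controls. The interval from the last defeat to collection was 14 h in the genotype experiment and was not given for the diet pools in the sources used here. RSD consisted of 6 nightly exposures to a CD-1 aggressor in the home cage, each lasting 2 h. In the diet experiment, going by the general methods of the study, C57BL/6 mice purchased at 5 to 7 weeks of age ate chow with PLX5622, which depletes microglia, from 7 days before RSD, or vehicle chow (Control Vehicle, Control PLX5622, RSD Vehicle and RSD PLX5622). In the genotype experiment the pools came from mice bred in-house, either IL-1R1+/+ without Cre (Control WT and RSD WT) or nIL-1R1-/- (Control KO and RSD KO), in which glutamatergic neurons, and cells descended from them, lose *Il1r1* through Cre driven by *Vglut2*, so UMIs outside the deleted part can remain. Ages of the bred mice were not given in the sources used here. Control and RSD pools therefore form 4 pairs, named Vehicle, PLX5622, WT and KO. The pool is the replicate, and with 1 pool for each condition p-values measure the spread between these pools. No transcript checks which pools were defeated, so each direction of RSD rests on the control and RSD labels as deposited. It would turn in an experiment whose labels had been exchanged. In the pools labelled RSD, *Pdzd2*, *Ccnd3* and *Erdr1* were higher and *Il1r1* was lower in all 4 pairs. Whether labels were exchanged was not tested.

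Granule nuclei numbered 1311 of 8017 in Control Vehicle (16.4%), 680 of 6102 in RSD Vehicle (11.1%), 245 of 4404 in Control PLX5622 (5.56%) and 269 of 4873 in RSD PLX5622 (5.52%). In the genotype experiment they numbered 1111 of 7326 in Control WT (15.2%), 882 of 5772 in RSD WT (15.3%), 1354 of 6511 in Control KO (20.8%) and 723 of 5816 in RSD KO (12.4%). Both PLX5622 pools stood apart, as did Control KO at the other end. The share was 14.5 ± 6.41% in control pools and 11.1 ± 4.1% in RSD pools (SD, n = 4), a difference of -3.38 points. It was lower after RSD in 3 of 4 pairs and did not exceed the spread between pools (two-sided exact permutation test of 4 against 4, p = 0.429; sign flips within pairs, p = 0.375, where the smallest p possible is 0.125). Without the PLX5622 pair the difference was -4.49 points.

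The share moved with depth. Granule nuclei had a median of 1785 UMIs in Control PLX5622 and 1780 in RSD PLX5622, against 3304 in Control Vehicle, 2490.5 in RSD Vehicle, 3379 in Control WT, 3540 in RSD WT, 4337.5 in Control KO and 2917 in RSD KO. In Control PLX5622 42.4% and in RSD PLX5622 39.8% of them sat at the floor of 3 marker UMIs, against 9.08% in Control KO and 26.9% in RSD Vehicle. When the floor was 1 marker UMI, the shares were 19.8 ± 3.45% in control and 17.8 ± 1.28% in RSD pools, and the PLX5622 pools came much closer to the rest. Among nuclei of at least 1000 UMIs, Control PLX5622 (9.56%) and RSD PLX5622 (9.82%) stayed lowest, with RSD KO next (13.6%). With at least 1500 UMIs they were still lowest, at 11.9% and 13.6%, against 14.3% in RSD KO. Just outside the floor, 223 nuclei of Control Vehicle had 2 marker UMIs, and just inside it 214 had 3. In Control PLX5622 these were 173 and 104. Summed over granule nuclei, the pools held between 520874 UMIs (Control PLX5622) and 8694655 UMIs (Control KO), so values in the PLX5622 pools carry the widest counting error.

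**Figure D1:**
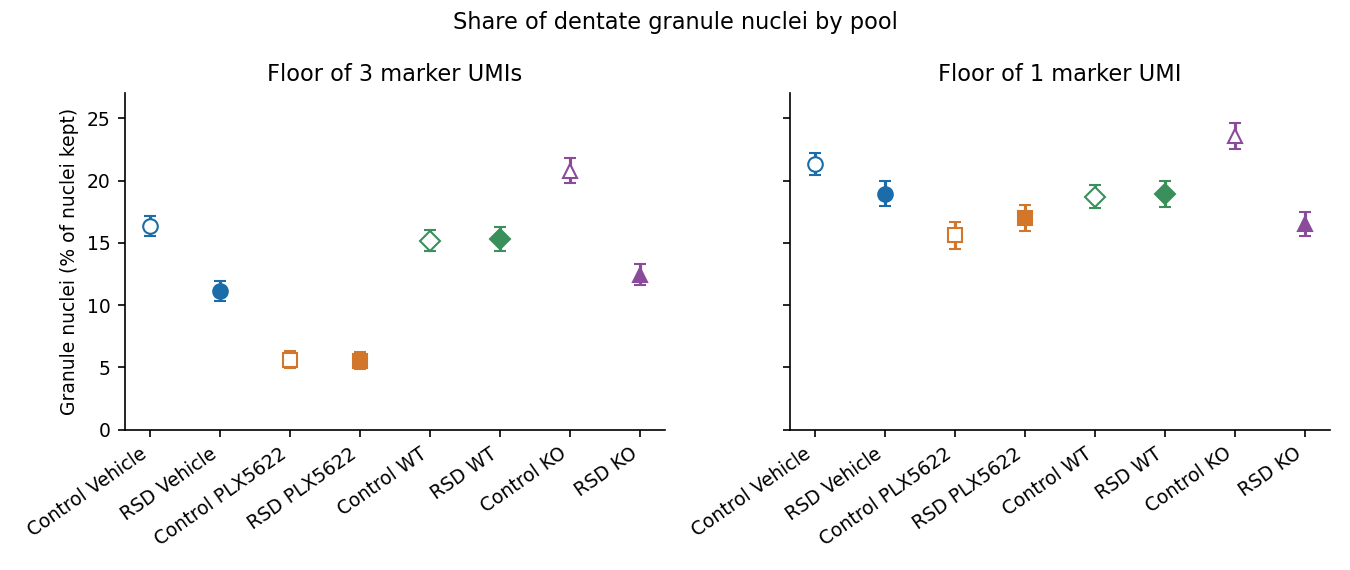
Share of nuclei that were granule nuclei (y axis, % of nuclei kept) in each of the 8 pools, with open symbols for control, filled symbols for RSD and bars for exact 95% binomial intervals (counting error only). With a floor of 3 marker UMIs (left) both PLX5622 pools sit near 5.5%, and with a floor of 1 (right) they sit near the other pools.

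The rule required marker UMIs, so their presence is no check of the name, and the values show which markers carried the choice. In Control Vehicle, *Glis3*, a zinc finger transcription factor, had a UMI in 93.9% of granule nuclei, *Trpc6*, a cation channel, in 69.0%, and *Prox1* in 61.6%. *Dsp*, a desmosome protein, was seen in 27.5%, *Stra6*, a retinol transporter, in 16.7%, and *C1ql2*, a secreted synapse organizer of mossy fibres, in 1.83%. Oligodendrocyte nuclei of the same pool, used as a background although *Prox1* is also known from the oligodendrocyte lineage, gave 5.35% for *Glis3*, 3.21% for *Trpc6*, 20.9% for *Prox1*, 0.535% for *Dsp* and for *Stra6*, and 0 of 187 nuclei for *C1ql2*, which allows a share of up to 1.95% by the exact binomial interval. Median depth was 3304 UMIs in the granule and 1206 in the oligodendrocyte nuclei, so the shares were not taken at equal depth. The share for *C1ql2* could not be told apart from background at this depth. The 6 markers summed to 1824 CPM (UMIs of a gene per 1e+06 UMIs of the granule nuclei of a pool) in granule nuclei and 232 CPM in other *Syt1* nuclei of Control Vehicle.

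Genes that the rule did not use also set these nuclei apart. Of 4863 genes with at least 20 CPM in the granule nuclei of every pool, 182 were over 2-fold higher and 184 over 2-fold lower than in the other *Syt1* nuclei, by mean CPM over 8 pools, and the median log2 ratio was 0.04. The gene with the highest ratio was *Prox1os*, the transcript antisense to *Prox1* (68.3 against 12 CPM, log2 ratio 2.50). Its start overlaps *Prox1*, and the use of strand in counting was not given in the sources used here, so reads of the pair may not be told apart. *Maml2*, a Notch coactivator, had 1417 against 304 CPM (log2 ratio 2.22), *Rfx3*, a transcription factor of ciliary genes, 1131 against 269 CPM (2.07), *Stxbp6*, a SNARE-binding protein, 520 against 113 CPM (2.20), and *Slc4a4*, a bicarbonate transporter, 655 against 158 CPM (2.05). The other 10 of the 15 highest included *Plekha2*, *Vwa3b*, *Slc29a4*, *Npnt*, *Gpc4*, *Plk5*, *Slc26a10*, *Arsj* and *Ocln*, with log2 ratios between 2.03 and 2.40. At the low end were *Dlx6os1* and *Erbb4*, which mark interneurons (log2 ratios -2.30 and -1.94), *Cntnap4* (-2.0), the potassium channel *Kcnq5* (-1.89) and the vesicle protein *Sv2b* (-1.88).

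Within granule nuclei, the genes that varied most from nucleus to nucleus included genes known from other cell types. Variation was measured as the squared coefficient of variation beyond Poisson noise, as the median of 8 pools, over 2587 genes of at least 50 CPM in every pool. Its median over genes was 0.294. It was 14.8 for *Gpc5*, 14.7 for *Grik1*, 13.6 for *Nxph1*, 9.17 for *Tshz2*, 8.16 for *Erbb4*, 6.65 for *Slc1a3* and 5.31 for *Slc1a2*. *Nxph1* and *Erbb4* are known from interneurons, and the glutamate transporters *Slc1a3* and *Slc1a2* from astrocytes.

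These UMIs sat in few nuclei. The 66 nuclei with the most UMIs of a gene, 1% of all, held 45.1% of *Tshz2*, 38.0% of *Nxph1* and 29.9% of *Erbb4* UMIs, where the median over 2580 genes was 11%. *Maml2* and *Rfx3*, which the rule did not use, were spread more evenly, with 7.28% and 8.31% of their UMIs in the top 1%. *Prox1* had 7.98% and *Glis3* 6.95%, but the rule required marker UMIs in every nucleus, so these 2 values are a description. The fixed interneuron markers exceeded 100 UMIs per 10000 in 41 nuclei (0.624%), the oligodendrocyte markers in 30 and the astrocyte markers in 21, and the microglia, endothelial and oligodendrocyte precursor markers in none. No doublet caller was run, and doublets were limited only by the rule's conditions on *Gad1* and *Gad2*, on *Igfbpl1* and on the CA genes.

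*Il1r1* (chr1:40264174-40356417) had a UMI in 21.7% of the granule nuclei of Control Vehicle, against 1.07% of its oligodendrocyte nuclei. Its level was 68.0 CPM in Control Vehicle, 63.5 in RSD Vehicle, 74.9 in Control PLX5622 and 55.9 in RSD PLX5622. In the genotype experiment it was 51.9 CPM in Control WT, 27.1 in RSD WT, 10.2 in Control KO and 7.15 in RSD KO. Both KO pools lay below every other pool, in the direction of their labels. Of the other 6, RSD WT was the lowest, and its counting interval (22.2 to 32.8 CPM) lay below that of each of the rest. The remaining pools ran in the order Control WT, RSD PLX5622, RSD Vehicle, Control Vehicle and Control PLX5622, and the intervals of neighbours in that order overlapped.

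In KO against WT pools *Il1r1* fell by 2.12 on the log2 scale (SE 0.22, adjusted p = 0.000298, edgeR quasi-likelihood test with Benjamini-Hochberg adjustment). The call was lost, with the direction kept, without Control WT (-1.73, adjusted p = 0.136), without Control KO (-2.14, adjusted p = 0.305) and with every nucleus thinned to 500 UMIs (-1.94, adjusted p = 0.258). In the pools labelled RSD, *Il1r1* was below the pool labelled control in 4 of 4 pairs (log2 fold change -0.51, SE 0.15) and did not pass adjustment (adjusted p = 0.301). Diet gave 0.02 (SE 0.24, adjusted p = 0.999).

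*Il1r1* was also above its level in other *Syt1* nuclei of the same pool, which held 11.7 CPM in Control Vehicle, 15.3 in RSD Vehicle, 16.8 in Control PLX5622, 14.5 in RSD PLX5622, 9.28 in Control WT and 9.76 in RSD WT. That is a ratio of 5.83 in Control Vehicle, 5.59 in Control WT and 2.78 in RSD WT. It was 2.34 in Control KO and 1.62 in RSD KO. *Il1rap*, the accessory protein, went from 486 to 382 CPM in the Vehicle pair, from 390 to 278 in PLX5622, from 554 to 487 in WT and from 560 to 524 in KO (log2 fold change -0.28, adjusted p = 0.404). It was lower after RSD in every pair without passing adjustment. Of 15 IL-1 receptors and ligands, 6 had enough UMIs to test, and *Il1r1* between genotypes was the call among them, beside 0.0388% of all genes called in that comparison. Of 17 tested genes of IL-1 signal transduction none was called for RSD, genotype or diet.

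**Figure D2:**
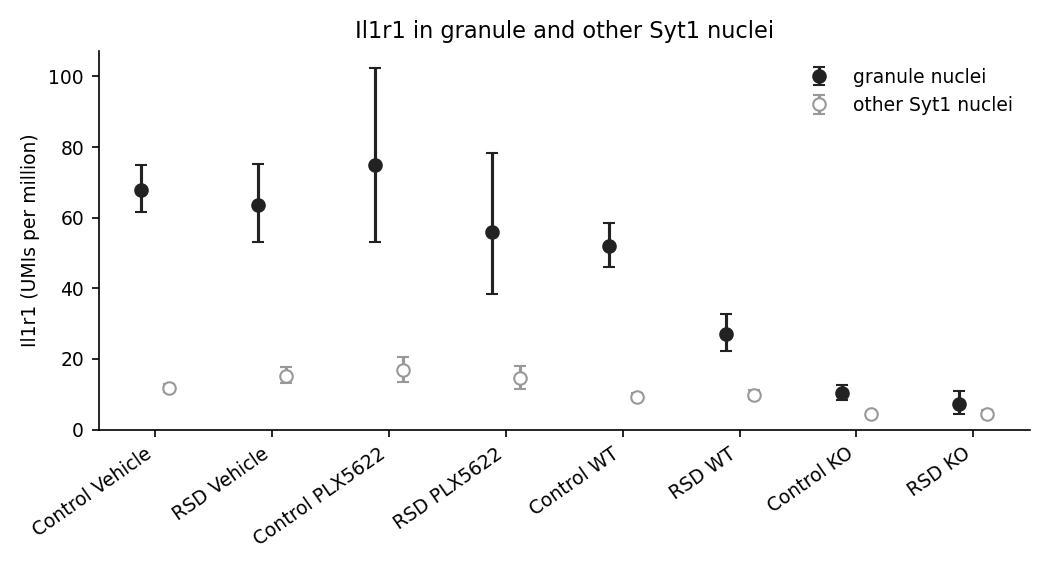
*Il1r1* level (y axis, CPM) in granule nuclei (filled) and in other *Syt1* nuclei (open) of each of the 8 pools, with exact 95% Poisson intervals (counting error only). Granule nuclei lie above other *Syt1* nuclei in every pool, and the KO pools are lowest at 10.2 and 7.15 CPM.

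RSD was tested over the 4 pairs with the pair as a term. Of 12878 genes, 4 passed an adjusted p of 0.05 (0.0311%), each higher after RSD. Without the term for the pair 0 passed, at log2 fold changes of 0.64 for *Pdzd2* (adjusted p = 0.447), 1.40 for *Ccnd3* (0.355) and 1.90 for *Erdr1* (0.494). The 4 were *Pdzd2*, *Ccnd3* and the near-identical X and Y copies *Erdr1* and *Gm47283*. These and later edgeR calls use a filter on low counts (filterByExpr) unless another setting is named. No gene was lower in that fit, 4 were by DESeq2, 32 by edgeR with no filter and 1 without the Vehicle pair. At an unadjusted p under 0.05, 672 genes were higher and 481 lower.

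*Pdzd2*, a protein with several PDZ domains (chr15:12359797-12740193), went from 567 to 841 CPM in the Vehicle pair, from 428 to 689 in PLX5622, from 480 to 731 in WT and from 387 to 695 in KO. Every RSD pool was above every control pool. The means were 466 ± 77.8 CPM in control and 739 ± 70.7 CPM in RSD pools (SD, n = 4), a 1.58-fold rise (log2 fold change 0.66, SE 0.09, adjusted p = 0.00736). The adjusted p was 0.0725 without the Vehicle pair, 0.155 without the WT pair and 0.134 without the KO pair, at log2 fold changes of 0.70, 0.66 and 0.59.

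*Ccnd3*, the D-type cyclin D3 (chr17:47815767-47910624), went from 23.2 to 48.9 CPM in the Vehicle pair, from 21.1 to 44.0 in PLX5622, from 16.2 to 36.0 in WT and from 8.28 to 42.5 in KO. The control and RSD pools did not overlap here either. The mean rose from 17.2 ± 6.64 to 42.9 ± 5.31 CPM (SD, n = 4, log2 fold change 1.46, SE 0.20, adjusted p = 0.00728). It rested on 697 UMIs in 433 of the 6575 nuclei, and the top 66 nuclei held 37.6% of them. Control PLX5622 contributed 11 *Ccnd3* UMIs and RSD PLX5622 26. The fixed microglia markers in these nuclei summed to 33.5 CPM in Control KO and 53.6 in RSD KO. They also rose in Vehicle (34.7 to 43.3) and PLX5622 (19.2 to 25.4), and fell in WT (40.8 to 34.0). Without the nuclei highest in glial and endothelial UMIs *Ccnd3* was still called (1.31, adjusted p = 0.0112 by edgeR). The part of microglial UMIs in its rise was not otherwise tested. The adjusted p was 0.155 without the WT pair and 0.199 after thinning to 500 UMIs, with log2 fold changes of 1.57 and 1.46.

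*Erdr1*, named for erythroid differentiation (chrX:168792690-168801793), went from 19.5 to 56.4 CPM in the Vehicle pair, from 13.4 to 86.3 in PLX5622, from 6.39 to 41.9 in WT and from 9.32 to 17.2 in KO. It was higher in every pair, though RSD KO lay below Control Vehicle. The log2 fold change was 1.77 (SE 0.23, adjusted p = 0.0072), from 12.2 ± 5.69 to 50.5 ± 28.9 CPM, and the adjusted p was 0.155 without the WT pair and 0.0767 after thinning. *Gm47283*, its copy on Y, went from 56.4 ± 24.6 to 113 ± 33.6 CPM (log2 fold change 0.97, adjusted p = 0.00736). It is named here, outside the naming rule, because the calls were so few. Reads of the 2 copies cannot be fully told apart, so they are best read as 1 result. Without the WT pair none of the 4 genes passed. Without the shallow PLX5622 pair all 4 did, among 10 calls.

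*Maml2*, which was among the genes that set granule nuclei apart, went from 1370 to 1700 CPM in the Vehicle pair, from 1081 to 1651 in PLX5622, from 1182 to 1588 in WT and from 1164 to 1598 in KO. Control and RSD pools did not overlap, at 1199 ± 122 and 1634 ± 51.9 CPM, but the adjusted p was 0.142 (log2 fold change 0.42, SE 0.09). DESeq2 called it (adjusted p = 0.00176). The smallest p-values for lower levels belonged to *Htr2c*, a serotonin receptor (log2 fold change -0.93), *Galntl6*, a GalNAc transferase-like gene (-0.46), and *Man1a*, a Golgi mannosidase that is also on the fixed CA1 list (-0.59). Each was lower in all 4 pairs with an adjusted p of 0.131 by edgeR. DESeq2 called *Galntl6* (adjusted p = 0.00274), gave *Man1a* 0.054 and gave no adjusted p for *Htr2c*, and edgeR with no filter on low counts called all 3.

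**Figure D3:**
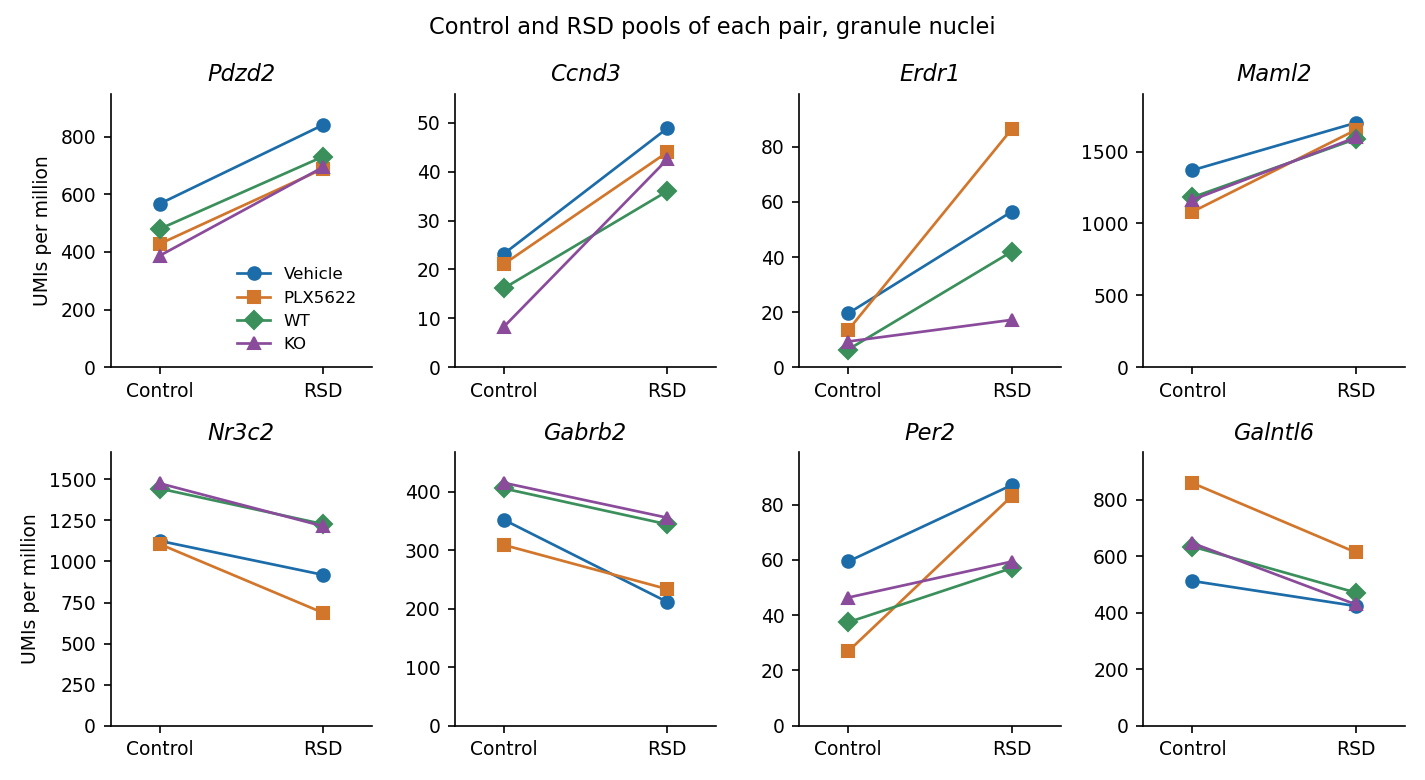
CPM (y axis, from 0) in the control and RSD pool of each of the 4 pairs for 8 genes in granule nuclei, where a line joins the pools of a pair. *Pdzd2*, *Ccnd3* and *Maml2* show no overlap of control and RSD pools. *Pdzd2*, *Ccnd3* and *Erdr1* passed an adjusted p of 0.05 by edgeR, and *Maml2* did not.

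The promoters of *Pdzd2* and *Ccnd3* are shown because these were the called genes without overlap between groups, and the study asked about CREB, whose site is TGACGTCA. Each run is the 250 bases before the canonical start of the gene in GENCODE vM39 on GRCm39 (the build named mm39 in the files), and capitals mark TGACG, the first letters of that site, on either strand.
Pdzd2, chr15:12592643-12592892, minus strand: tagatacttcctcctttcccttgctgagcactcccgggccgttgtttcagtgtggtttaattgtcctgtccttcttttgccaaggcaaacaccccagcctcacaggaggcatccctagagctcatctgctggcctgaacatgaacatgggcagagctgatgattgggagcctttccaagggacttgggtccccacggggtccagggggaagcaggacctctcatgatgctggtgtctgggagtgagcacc
Ccnd3, chr17:47904114-47904363, plus strand: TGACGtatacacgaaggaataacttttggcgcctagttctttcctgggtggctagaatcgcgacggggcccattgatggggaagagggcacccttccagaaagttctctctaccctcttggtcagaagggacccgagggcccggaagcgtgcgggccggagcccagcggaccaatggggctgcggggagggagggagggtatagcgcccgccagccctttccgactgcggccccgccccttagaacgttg
TGACG was found 1 time in the *Ccnd3* window and 0 times in that of *Pdzd2*, and in 18.0% of 21770 promoters of this length. TGACGTCA, which contains it, was in neither and in 1.69% of promoters. TGTTCT, an arm of the glucocorticoid response element, was in neither and in 14.3%. A match to these letters is a description of the window and not a site of binding. Both windows lie inside the spans given above for these genes, so each gene has an annotated start further upstream. Which start was used in these nuclei was not tested.

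GABA-A receptor subunits, which form the chloride channel of fast inhibition, had log2 fold changes below 0 after RSD without passing adjustment. Of 12 tested, 0 were called by edgeR or DESeq2 and 2 by edgeR with no filter on low counts, where 32 of all 29425 genes were called lower. With the filter, 7 were lower at an unadjusted p under 0.05, beside 481 of all 12878 genes, and the same 7 were lower in all 4 pairs once libraries were scaled (TMM), where 9.60% of all genes were. Their median log2 fold change was -0.27, and that of all genes 0.00. It was -0.45 in the diet pairs, with all 12 below 0, and -0.13 in the genotype pairs, with 9 below and 3 above 0. The beta subunit *Gabrb2* went from 352 to 212 CPM in the Vehicle pair, from 309 to 234 in PLX5622, from 406 to 344 in WT and from 415 to 356 in KO (log2 fold change -0.41, SE 0.11, adjusted p = 0.219). The log2 ratio was -0.76 and -0.49 in the diet pairs and -0.22 in both genotype pairs. Of the others, *Gabrg3* had -0.35, *Gabra5* -0.30 and *Gabra4* -0.24. *Gabrd*, the delta subunit of tonic inhibition, had -0.02. In other *Syt1* nuclei the summed subunits were lower after RSD too, from 3680 to 2849 CPM in Vehicle and from 4008 to 2997 in PLX5622. There they went from 3952 to 3689 in WT and from 4330 to 3778 in KO. Lower levels of these subunits were thus not shown to be particular to granule neurons.

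Corticosteroid receptors and responsive genes went both ways, and 0 of 10 tested were called (1 with no filter on low counts, *Nr3c2*, adjusted p = 0.0118). *Nr3c2*, the mineralocorticoid receptor, went from 1125 to 918 CPM in the Vehicle pair, from 1106 to 687 in PLX5622, from 1444 to 1227 in WT and from 1476 to 1215 in KO (log2 fold change -0.38, adjusted p = 0.229). *Nr3c1*, the glucocorticoid receptor, had -0.32 and was lower in 3 of 4 pairs. Its targets *Fkbp5* and *Zbtb16* had 0.39 and 0.25, with the higher values in the genotype pairs. *Fkbp5* went from 99.2 to 141 CPM in WT and from 85.5 to 156 in KO, but from 135 to 139 in Vehicle and from 142 to 139 in PLX5622. *Sgk1* had -0.12.

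Of 14 clock genes tested, 0 were called, and with no filter on low counts *Per2* was (adjusted p = 0.0275). The period genes *Per2* (log2 fold change 0.59, adjusted p = 0.179) and *Per3* (0.47) were higher in all 4 pairs, and *Per1* (0.50) and *Nr1d1* (0.59) in 3. *Per2* went from 59.4 to 87.0 CPM in the Vehicle pair, from 26.9 to 82.9 in PLX5622, from 37.4 to 57.0 in WT and from 46.4 to 59.4 in KO. *Arntl*, the activator of the period genes, was lower in all 4 pairs (-0.30). The median over the list was 0.04. The hour at which control mice were collected was not given in the sources used here.

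**Figure D4:**
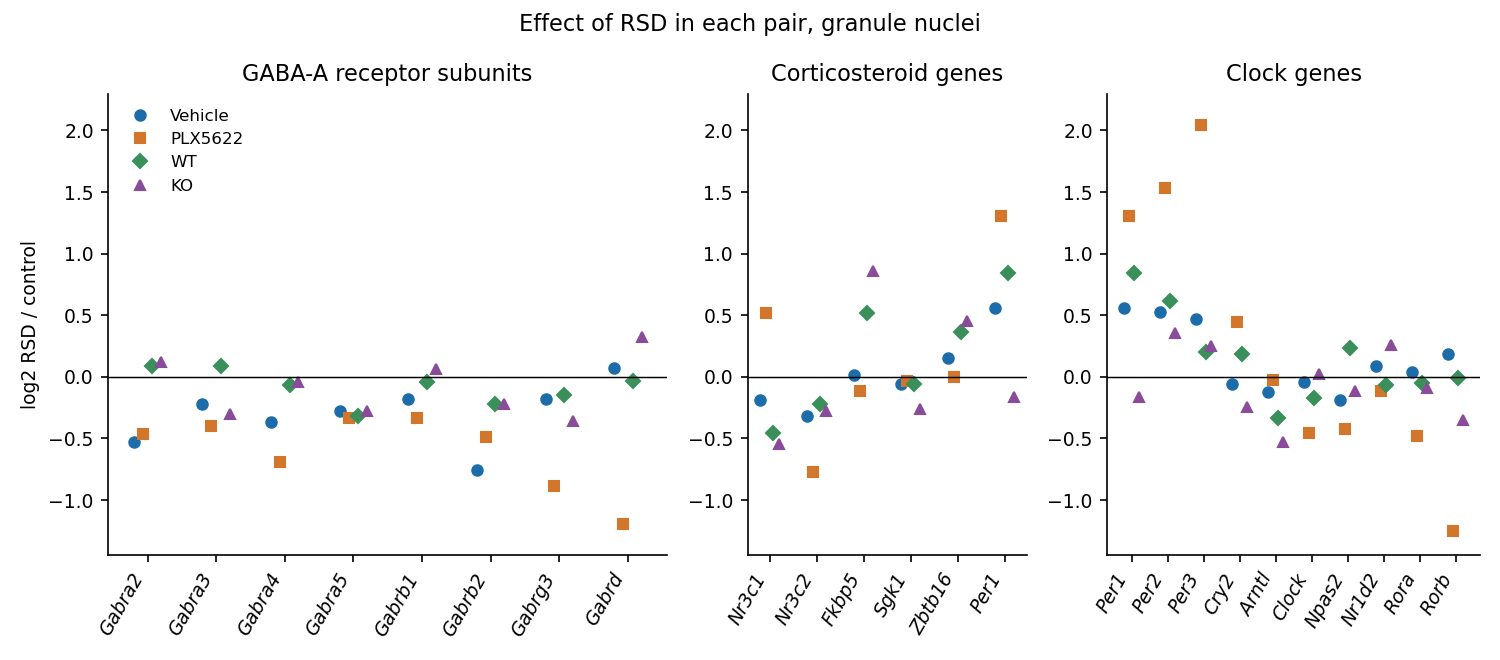
Log2 ratio of RSD to control after TMM scaling (y axis) in each of the 4 pairs for 8, 6 and 10 members of 3 gene lists with a mean of at least 10 (GABA-A receptor subunits) or 20 CPM (corticosteroid and clock genes) in granule nuclei. *Gabrb2*, *Nr3c2* and *Arntl* lie below 0 and *Per2* and *Per3* above 0 in all 4 pairs, and none passed an adjusted p of 0.05 by edgeR with the filter on low counts.

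The other lists gave 0 calls over 4 pairs by edgeR as well. DESeq2 called 3 list members, *Slit2* and *Cntnap2* of the synapse adhesion and scaffold genes and *Maml2* of the granule neuron genes. With no filter on low counts edgeR called 12 list members, GABA-A subunits included, among them *Grin3a* of the glutamate receptors and the 3 genes that DESeq2 called. The 12 also hold *Gm2115*, a CA gene by which the rule chose nuclei, so its value is a description and no result. The nuclear RNA *Rn7sk* was the 1 list member called with purer nuclei, after thinning and without the PLX5622 pair. In the CREB pathway (18 tested, median 0.02) *Creb1* itself had -0.18, while the calcium kinases *Camk2a* (0.27) and *Camk2b* (0.34), the adenylyl cyclase *Adcy1* (0.25) and the CREB coactivator *Crtc1* (0.19) were higher in all 4 pairs, and 1 gene, the cyclase *Adcy8* (-0.21), was lower in all 4. Over all genes 8.95% were higher and 9.60% lower in all 4 pairs. The adjusted p-values of the 4 higher genes and *Adcy8* lay between 0.281 and 0.609. Neurotrophins and receptors (11 tested) had a median of 0.00, with *Bdnf* at -0.19 and *Ntrk2* at 0.00. Of 17 activity-regulated genes 12 were tested, with a median of 0.17. *Nr4a1* was higher in all 4 pairs (0.49), at 11.1 to 21.6 CPM, and *Arc* and *Egr1* were at or under 8.28 CPM in every pool.

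Among 26 synapse adhesion and scaffold genes (median -0.11) 5 were higher and 7 lower in all 4 pairs. The higher ones included the postsynaptic scaffolds *Shank1* (0.25) and *Shank2* (0.22), and the lower ones the guidance cue *Slit2* (-0.51, adjusted p = 0.131 by edgeR and 0.0367 by DESeq2) and the adhesion protein *Cntnap2* (-0.41, adjusted p = 0.179 by edgeR and 0.0367 by DESeq2). Of 26 potassium channel genes (median -0.06), 3 were lower in all 4 pairs, among them *Kcnj3* (-0.33) and the channel partner *Kcnip4* (-0.28), and 2 were higher, among them *Kcnip3* (0.22), shares near those of all genes. Of 22 glutamate receptor genes (median -0.05), 4 were lower in all 4 pairs, *Grin3a* (-0.58, adjusted p = 0.179), *Grm5* (-0.20), *Grm8* (-0.20) and *Gria3* (-0.17). *Grin2a* had 0.09 and *Grin2b* -0.13. Sodium and calcium channels (17 tested) had a median of -0.03, mossy fibre release genes (20) of 0.10 and chaperones (11) of 0.14.

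Genes of granule identity went both ways. The 12 granule neuron genes outside the rule had a median of 0.03, with 8 above and 4 below 0, and 3 were higher at an unadjusted p under 0.05, beside 672 of all 12878 genes. These were *Maml2* (0.42), *Plk5* (0.49, higher in 3 of 4 pairs) and the lactase gene *Lct* (0.30, higher in all 4). *Dock10* had 0.10. *Calb1*, a calcium buffer (-0.23), and *Tdo2* (-0.49, at or under 5.76 CPM in every pool) were lower in all 4 pairs. *Dcx*, a marker of immature neurons, had between 19.2 and 30.5 CPM across pools (-0.13). The rule's own 6 markers chose the nuclei, so their log2 ratios are a description, with *C1ql2* at 0.61, *Stra6* at 0.41, *Dsp* at 0.19, *Prox1* at 0.09, *Trpc6* at 0.03 and *Glis3* at 0.01.

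More genes passed the test of RSD in the diet pairs. There 87 genes were called (0.676%), 49 higher (0.38%) and 38 lower (0.295%). In the genotype pairs 7 were (0.0544%), 6 higher (0.0466%) and 1 lower (0.00777%). Among the 49 higher genes of the diet pairs were *Rbm25*, *Luc7l3* and *Srek1*, each known from splicing. Splicing genes were not a fixed list here and were not tested as a group. *Rbm25* went from 753 to 1195 CPM in the Vehicle pair and from 860 to 1798 in PLX5622, but from 622 to 576 in WT and from 582 to 603 in KO. The diet pairs gave it a log2 fold change of 0.80 (adjusted p = 0.00365) and the genotype pairs -0.02. The lowest p-values for a fall in the diet pairs belonged to *Tenm2*, a synaptic teneurin (-0.71, adjusted p = 0.00336), *Prr16* (-0.85) and the sarcoglycan *Sgcz* (-0.72). *Tenm2* went from 4359 to 2744 CPM in Vehicle, from 4562 to 2918 in PLX5622, from 3829 to 3642 in WT and from 4575 to 3792 in KO.

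Several list members passed in the diet pairs. *Gabrb2* (-0.66, adjusted p = 0.0228) was among the 2 of 12 GABA-A subunits called lower, beside 0.295% of all genes. *Nr3c2* fell by 0.52 on the log2 scale (adjusted p = 0.0435), *Kcnip4* by 0.48, and the synaptic adhesion gene *Nlgn1* by 0.53. *Robo1* and *Lrrtm4* fell too, by 0.61 and 0.43. *Camk2b* (0.51), the synaptotagmin *Syt7* (0.60) and *Plk5* (1.06) rose. The mitochondrial rRNAs *mt-Rnr1* (0.92) and *mt-Rnr2* (1.1) rose with them, and mitochondrial genes held 0.455% of granule UMIs in RSD PLX5622 against 0.134% in Control PLX5622. Their part in the other differences was not tested.

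In the genotype pairs *Ccnd3* (1.75, adjusted p = 0.00334) and *Pdzd2* (0.73, adjusted p = 0.00796) were called again, with *Erdr1*, *Gm47283*, *Dpysl5* (0.87), a gene of axon growth, and *Rn18s-rs5* (0.58), which resembles ribosomal RNA. The lower gene was *Gm2115* (-1.35), 1 of the CA genes by which the rule chose nuclei, so its value is a description and no result. The 2 sets of pairs share no pool. Of the 87 genes called in the diet pairs, 63 (72.4%) had the same direction in the genotype pairs, where 56.0% of all genes shared direction, and 8 of them were at an unadjusted p under 0.05. Their median size was 0.76 in the diet pairs and 0.09 in the genotype pairs, counted in the direction of the diet pairs. Of the 7 genes called in the genotype pairs, *Gm2115* included, 7 had the same direction in the diet pairs, and 4 of them were at an unadjusted p under 0.05. Their median size was 1.05 in the genotype pairs and 0.57 in the diet pairs, counted in the direction of the genotype pairs. The difference between the experiments itself was called for 0 of 12878 genes by edgeR (at an unadjusted p under 0.05, 406 higher and 380 lower in the genotype pairs) and for 1 by DESeq2. It was called for 39 genes with no filter on low counts, for 10 with purer nuclei and for 2 after thinning. The lowest adjusted p was 0.0652 for *Atg4a*, an autophagy protease (115 to 170 CPM in Vehicle, 152 to 438 in PLX5622, 115 to 88.7 in WT and 106 to 75.4 in KO), and *Pdzrn4* had 0.0657 and *Rbm25* 0.0965.

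Whether RSD acted differently in nIL-1R1-/- mice was the question of the genotype experiment. The difference between the KO and WT pairs was called for 0 of 14219 genes by edgeR and by DESeq2, with 69 higher and 104 lower at an unadjusted p under 0.05. In this fit each arm of the WT and KO pairs is a single pool. The spread comes from the diet pools, with 1 residual degree of freedom and shared over genes, so each lone pool is assumed to vary as the diet pools do. *Cmss1* (1.01) and *Zfhx3* (1.75), a transcription factor of neurons, came nearest, with an adjusted p of 0.0619. *Pdzd2* gave 0.62 in the WT pair and 0.83 in the KO pair (difference 0.21, SE 0.28). *Ccnd3* gave 1.17 in WT and 2.34 in KO (difference 1.17, SE 0.49), and *Erdr1* 2.72 in WT and 0.87 in KO (difference -1.86, SE 0.55). With 1 pool in each condition these differences did not pass adjustment, and their adjusted p was 1. *Il1r1* gave -0.92 in WT and -0.53 in KO (difference 0.39, SE 0.54).

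Apart from *Il1r1*, the genotype comparison called 4 genes, all lower in KO pools (5 of 12878 in all, 0.0388%), of which 3 are given here. *Rgs20*, a regulator of G-protein signals, had 29.1 CPM in Control WT and 35 in RSD WT against 11.2 and 13.6 in the KO pools (log2 fold change -1.36, SE 0.22, adjusted p = 0.0474). *Cfap46*, a protein of cilia, had 25.6 and 27.3 CPM against 9.20 and 6.44 (-1.58, adjusted p = 0.0488), and *Daam2*, a formin of the Wnt pathway, 40.2 and 41.7 CPM against 17.4 and 21.1 (-1.07, adjusted p = 0.0474). In each of these 3 genes both KO pools lay below both WT pools. Their calls were nonetheless lost by DESeq2 (adjusted p 0.0845 to 0.125), with RLE size factors (0.0538 to 0.0557), after thinning, with purer nuclei and without any 1 of the 4 genotype pools, in each case with the direction kept. In the 8-pool fit with the filter on low counts no gene was higher in KO pools by edgeR or DESeq2 (3 were by edgeR with no filter), with 115 at an unadjusted p under 0.05 by edgeR, and *Capn11*, *Ppfia4* and *Dctn2* came nearest (adjusted p 0.434 to 0.564). The 4 genotype pools alone gave 12 higher and 165 lower, and there *Capn11* (adjusted p = 0.0375) and *Ppfia4* (0.0105) passed. That fit had 1 residual degree of freedom, with the spread shared over genes, so its p-values rest on very little replication.

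Summed UMIs of astrocyte, oligodendrocyte and oligodendrocyte precursor markers were also lower in the KO pools, and those of microglia markers were not, with 0 members of these lists called. The astrocyte markers summed to 331 CPM in Control WT and 342 in RSD WT, against 248 in Control KO and 236 in RSD KO, with *Slc1a2* the highest and none of the 5 at 0. The oligodendrocyte markers summed to 668 and 722 CPM in WT and to 542 and 555 in KO pools. The 3 oligodendrocyte precursor markers summed to 21.8 and 23.0 CPM in WT and to 13.6 and 13.6 in KO pools, with a median log2 fold change of -1.24. The microglia markers summed to 40.8 and 34.0 CPM in WT and to 33.5 and 53.6 in KO pools. The top 1% of nuclei held 66.6% of *Cfap46*, 45.9% of *Rgs20* and 34.3% of *Daam2* UMIs, against 19.3% of *Il1r1*. Without the 10% of nuclei of each pool highest in glial and endothelial UMIs, *Il1r1* was still called and these 4 were not. The part of glial UMIs in these values was not otherwise tested.

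Diet called 4 genes, all higher in the PLX5622 pools (0.0311%). *Neat1*, a noncoding RNA that builds paraspeckles (chr19:5874736-5897132), had 123 CPM in Control PLX5622 and 408 in RSD PLX5622, against 20.9 and 19.3 in the Vehicle pools (log2 fold change 3.61, SE 0.32, adjusted p = 3.79e-05). The genotype pools lay between 10.7 and 21.8 CPM. The top 66 nuclei held 57.2% of all 808 *Neat1* UMIs, and a single nucleus held 53. The log2 fold change of *Neat1* was 2.56 without RSD PLX5622 and 4.37 without Control PLX5622. *Tshz2*, a transcription factor, had 363 and 235 CPM against 145 and 101 (1.29, adjusted p = 0.0208). Its call was lost without Control PLX5622 (0.96, adjusted p = 0.286), without Control Vehicle (1.45, adjusted p = 0.0772), after thinning (0.0678) and with purer nuclei (0.0834), while that of *Neat1* was kept under every alternative run.

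*Cd109* and *Itgb3*, cell surface proteins known from platelets, rested on few UMIs. *Cd109* had 5 UMIs in Control PLX5622 and 28 in RSD PLX5622, against 10 and 7 in the larger Vehicle pools, or 9.60 and 47.4 against 1.68 and 3.29 CPM (adjusted p = 0.0208). Its call was lost without RSD PLX5622 (log2 fold change 2.48, adjusted p = 0.38), without either Vehicle pool (0.0701 and 0.0831) and with purer nuclei (0.0826). *Itgb3* had 29 UMIs in Control PLX5622 (55.7 CPM, interval 37.3 to 80.0) and 3 in RSD PLX5622 (5.08 CPM, 1.05 to 14.8), against 14 and 2 in Vehicle pools. Outside the PLX5622 pools it had at most 2.36 CPM. The filter on low counts may have kept *Itgb3* only through the PLX5622 pools, so its call is given as a description. The *Itgb3* call (adjusted p = 0.0394) was lost without Control PLX5622, where the log2 fold change was 1.62 and the adjusted p 0.686, and without Control Vehicle (4.02, adjusted p = 0.793). No gene was lower in PLX5622 pools by edgeR with the filter on low counts or by DESeq2, with 390 at an unadjusted p under 0.05 by edgeR. *Dpm1* (63.0 and 56.0 CPM in Vehicle, 23.0 and 27.1 in PLX5622 pools), *Zfhx4* and *Gcdh* came nearest, and with no filter on low counts these 3 passed (adjusted p 0.00728, 0.0266 and 0.0177). *Gcdh*, a mitochondrial dehydrogenase, had 0 CPM in Control PLX5622 and 1.69 in RSD PLX5622, both under the level that 3 UMIs would give there (5.76 and 5.08 CPM), against 11.3 and 13.6 in Vehicle pools.

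Of the 8 fixed interneuron markers 4 were tested, with 3 above and 1 below 0 in the PLX5622 pools, and 1 was at an unadjusted p under 0.05. That was *Erbb4*, with 428 and 420 CPM in PLX5622 and 213 and 218 in Vehicle pools (0.99, adjusted p = 0.092 by edgeR and 0.0117 by DESeq2). The interneuron markers summed to 1985 and 1899 CPM in PLX5622 pools and to 1931 and 1848 in Vehicle pools, with *Adarb2* the highest. *Slc32a1*, *Sst* and *Pvalb* were at 0 in Control PLX5622. Oligodendrocyte markers summed to 801 and 708 CPM against 639 and 660, and microglia markers to 19.2 and 25.4 against 34.7 and 43.3. Without the nuclei of each pool highest in glial and endothelial UMIs, *Neat1* and *Tshz2* were still called between diets, and *Cd109* and *Itgb3* were not. The part of glial UMIs in the diet calls was not otherwise tested. That of interneuron UMIs was not tested.

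**Figure D5:**
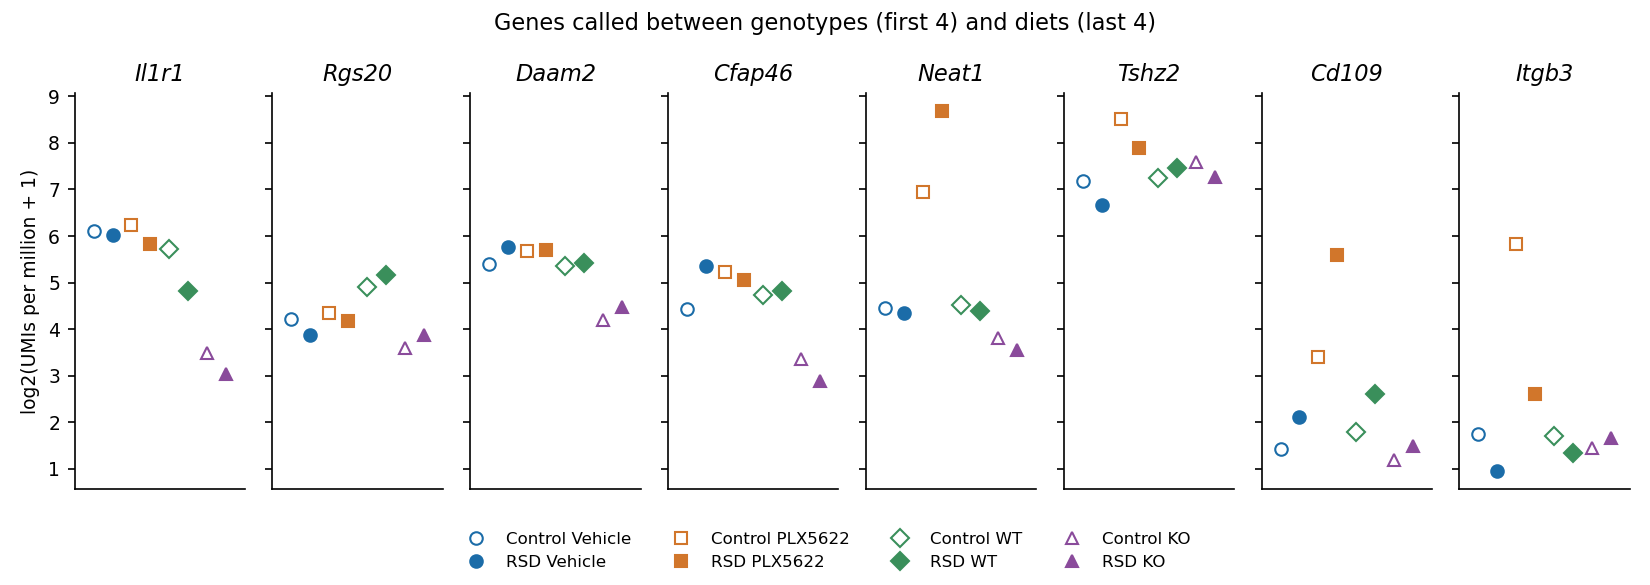
Level on a log2 scale (y axis, log2 of CPM plus 1) of 4 of the 5 genes called between genotypes (first 4 panels) and between diets (last 4) in each of the 8 pools, open for control and filled for RSD. Both KO pools are lowest for *Il1r1* and *Cfap46*, both PLX5622 pools are highest for *Neat1* and *Tshz2*, and *Itgb3* is raised mainly in Control PLX5622 at 55.7 CPM.

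Other *Syt1* nuclei of the same pools were set beside the granule nuclei to see where RSD acted differently. For *Pdzd2* the log2 fold change of RSD was 0.67 in other *Syt1* nuclei (adjusted p = 0.0703), and the difference of granule from other nuclei was -0.02. *Ccnd3* gave 0.97 there (adjusted p = 0.018) and a difference of 0.57 (adjusted p = 0.46), and *Erdr1* 2.01 and a difference of -0.18. The 3 genes were thus not shown to be particular to granule neurons. The difference was called for 29 of 12878 genes, with the RSD effect lower in granule nuclei for 24 and higher for 5. The strongest was *Mef2c*, an activity-dependent transcription factor, with a difference of -0.77 (SE 0.09, adjusted p = 0.000847). In granule nuclei *Mef2c* had -0.15 for RSD and in other *Syt1* nuclei 0.54, neither past adjustment. The differences stated here are not the exact gaps between the 2 printed values of a gene. *Trpc4*, a cation channel (0.47), and *Htr4*, a serotonin receptor (0.44), differed in the other direction. The makeup of the other *Syt1* nuclei can differ between pools and includes granule nuclei that missed the marker floor, and its part in these differences was not tested.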

How the data were processed

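Per the labels, nuclei of all 8 pools were barcoded together by split-pool rounds (Parse Biosciences), and each of the 4 sublibraries holds nuclei of every pool. The authors deposited raw UMI counts, which carry no scaling, for every gene in each nucleus. The submitters' processing notes name mm39 and Seurat 4.1.1, and the study's methods name the Parse Biosciences software for alignment, with its version and annotation release not given in the sources used here. Nuclei were given their pool by the sample name in the deposited tables. The files held 57350 nuclei, of which 48821 had at most 20% mitochondrial UMIs and at least 500 UMIs. No barcode was shared between pools, and 3082 of 54179 well combinations occurred in more than 1 sublibrary and were kept as separate nuclei. No doublet caller was run.

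UMIs were summed over the granule nuclei of each pool, since nuclei of a pool are not replicates, and tested with edgeR 4.0.16 (TMM, filterByExpr, quasi-likelihood F test, R 4.3.3) with Benjamini-Hochberg adjustment over all genes tested. The term for the pair was part of the fit, and genotype and diet were contrasts of pairs in the same fit. CPM divides by the summed UMIs without TMM, while counts of pairs higher or lower use TMM. Intervals are exact Poisson or exact Clopper-Pearson at 95% and cover counting error only. DESeq2 1.42.0, another scaling, other filters, purer or deeper nuclei and left-out pools were alternatives. Data were simulated with the real means, and changes were put only into genes with a mean of at least 20 CPM. No other differences between pairs were simulated. There the RSD test over 12501 genes recovered 85% of 1.5-fold and 100% of 2-fold changes with 10 false calls. The genotype test over 12495 genes recovered 50% and 97%, and the diet test over 12475 genes 23% and 65%. Recovery of changes in genes at lower levels was not tested, so these shares do not cover them.

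Coordinates are those of GENCODE vM39, which held 56017 of the 56748 identifiers. Genes were named by p-value within a comparison (the 8 smallest past an adjusted p of 0.05 in each direction, or the 3 smallest where fewer than 3 passed), by level or by variation. *Gm47283*, *Mef2c*, *Trpc4*, *Htr4*, and the list members and glial genes that did not pass were named after their values were seen. Some genes that these rules name are not reported here. The comparison with other *Syt1* nuclei was added after the data were seen. Members, lists and tests were chosen with earlier results of these data known.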

Additional observations from a re-analysis of the deposited data

Results flagged for a closer look

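Within the 4 control or the 4 RSD pools, 78 sets of 4 values were examined for a pool far from the rest (the gap to its nearest neighbour over the whole range, past Dixon's 95% limit), and 8 met this. Chance gives about 1 in 20, but only for sets not chosen for a difference, and these genes were named for theirs. Each set holds 1 PLX5622 pool, so the values for *Neat1*, *Cd109* and *Itgb3* restate the diet calls. *Neat1* did in control pools (0.921; Control PLX5622 at 123 CPM, the others between 13.1 and 21.8) and in RSD pools (0.977; RSD PLX5622 at 408 CPM). *Cd109* did in control pools (0.859; Control PLX5622 at 9.60 CPM) and in RSD pools (0.927; RSD PLX5622 at 47.4 CPM). *Itgb3* did in control pools (0.988; Control PLX5622 at 55.7 CPM). *Capn11* did in control pools (0.892; Control KO at 4.72 CPM, the others between 1.69 and 2.02). *Rgs20* did in RSD pools (0.844; RSD WT at 35 CPM, the others between 13.6 and 16.9). The nuclear RNA *Rn7sk* did in RSD pools (0.885; RSD Vehicle at 251 CPM, the others between 86.3 and 105).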

How the results depend on the processing

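The share of granule nuclei was lower in RSD pools under every alternative run, by 1.71 to 4.54 points, and passed a test under none. With 4 pairs the smallest p of sign flips is 0.125, so that test could not pass. Neither test could with 3 pairs. With purer nuclei the share was lower in 4 of 4 pairs. For RSD over 4 pairs, 12 genes were called by DESeq2 (8 higher and 4 lower, where *Ccnd3* and *Erdr1* had no adjusted p), 74 with no filter on low counts (42 higher and 32 lower), 10 with purer nuclei, and between 0 and 10 without 1 pair (0 without WT, 10 without PLX5622). Without the replicate block 0 were called. Deviations of paired pools correlated with r of 0.059 (Vehicle), 0.070 (PLX5622), 0.162 (WT) and 0.227 (KO). For genotype, 2 genes were called by DESeq2, 1 with RLE size factors, 93 with no filter (3 higher and 90 lower), 3 with nuclei of at least 1000 UMIs, 0 after thinning to 500 UMIs, 1 with purer nuclei, 2 without the nuclei highest in glial UMIs, 177 with the 4 pools of the experiment alone (12 higher and 165 lower), 8 without both PLX5622 pools (chosen after seeing the data) and between 0 and 3 without 1 pool. *Il1r1* kept its direction at -1.94 after thinning, -1.73 without Control WT and -2.14 without Control KO, and was not called there (it lay between -1.73 and -2.35 without 1 pool). For diet, 10 genes were called by DESeq2, 7 with RLE, 61 with no filter (58 higher and 3 lower), 8 after thinning, 2 with purer nuclei, 2 without the nuclei highest in glial UMIs and between 1 and 71 without 1 pool (71 without RSD PLX5622), and no alternative could leave out both PLX5622 pools. The difference between experiments gave 1 gene by DESeq2, 39 with no filter, 2 after thinning and 10 with purer nuclei, and RSD by genotype gave 6 with purer nuclei and 1 without the nuclei highest in glial UMIs. The share and the named genes that were run under these alternatives kept their direction. Calls within the diet pairs or within the genotype pairs were run with the main settings only. The fit to the 4 genotype pools alone had 1 residual degree of freedom. The causes of the changes in counts were not tested. Depth limits the PLX5622 pools most, where 3 UMIs equal 5.76 and 5.08 CPM.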
